A study of Mus musculus with 12 samples.

Results

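The miR-26 family was followed through small RNA libraries of mouse striatum as 4 mature miRNAs, mmu-miR-26b-5p, mmu-miR-26b-3p, mmu-miR-26a-5p and mmu-miR-26a-2-3p, of the 1915 mature miRNAs counted. They were taken by name, with all 12 libraries for each. The family was selected on the level of miR-26b-5p, which was higher in R6/2 than in wild type (WT) striatum under both viruses used, so every genotype difference below is a description of the values that led to the choice, and no genotype test of the family is given. The remaining arm of the family in the tables, miR-26a-1-3p, is shown beside the 4. All 5 passed the expression filter.

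Each of the 4 groups held 3 libraries. The mice were WT or R6/2 on a background labelled B6CBAFI/J, R6/2 being a Huntington's disease model that carries exon 1 of the human disease gene as a transgene. At 5 weeks of age both hemispheres' striata received an adeno-associated virus (AAV) with either a control short hairpin RNA or one against TRAX (shTRAX), and striatum was taken at 10.5 weeks. The groups are therefore WT control, WT shTRAX, R6/2 control and R6/2 shTRAX, and all mice had the surgery and a virus. TRAX and translin form a nuclease complex, which in cell and biochemical studies removes passenger strands of small RNA duplexes and degrades some miRNA precursors. The AAV serotype, hairpin promoter and share of cells reached were not given in the sources used here, and the knockdown itself could not be checked, since Tsnax mRNA, which encodes TRAX, is no miRNA. Nothing in the labels says that each replicate was its own animal, and the spread behind each p-value may be technical. Striatum was sampled whole, and in such bulk samples fewer cells of a type and less RNA per cell cannot be told apart.

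miRNAs are cut from hairpins into a 5p and a 3p strand. One strand, the guide, is kept in Argonaute and pairs with messages mainly through its seed (bases 2 to 8), and the other, the passenger, is mostly lost. In the miR-26 family the 5p strand is the guide. miR-26 is abundant in many tissues including brain, where it is associated with neuronal differentiation, and EZH2 is among its well-known targets. Its 3 hairpins lie within genes for small C-terminal domain phosphatases (Ctdsp1, Ctdsp2 and Ctdspl), which work with the repressor REST at neuronal genes. In zebrafish, miR-26b represses the message of its host gene ctdsp2.

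The mature sequences show why the family has to be read as guides that share a target seed and passengers that differ. They are given 5′ to 3′ from RefSeq, with the seed in capitals.
miR-26b-5p: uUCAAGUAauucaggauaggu
miR-26a-5p: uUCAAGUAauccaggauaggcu
miR-26b-3p: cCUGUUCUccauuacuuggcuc
miR-26a-2-3p: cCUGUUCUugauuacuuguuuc
miR-26a-1-3p: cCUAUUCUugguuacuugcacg
miR-26b-5p and miR-26a-5p have the same seed, and no other mature mouse miRNA in the RefSeq table has it. Read without gaps from position 1 at the 5′ end over 21 bases, they differ at 2 positions, C11U and C21U (the miR-26a-5p base first), and miR-26a-5p is longer, at 22 bases against 21. How reads too short to tell the guides apart were counted was not given in the sources used here. Passengers of miR-26b and miR-26a-2 share a seed of their own and differ at 4 of 22 positions (U9C, G10C, U19G and U20C, the miR-26a-2-3p base first). miR-6932-3p and miR-7039-3p also have that passenger seed but reached no more than 2 counts and 1 count in any library. miR-26a-1-3p has a different seed through G4A (the miR-26a-2-3p base first). By composition miR-26b-5p was the poorest of the 5 in G and C at 33.3%, followed by miR-26a-2-3p at 36.4%, miR-26a-5p at 40.9%, miR-26a-1-3p at 45.5% and miR-26b-3p at 50.0%.

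The hairpins are printed from RefSeq (build GRCm38.p6, plus strand) to show which arms come from which locus, with the mature strands in capitals.
Mir26b: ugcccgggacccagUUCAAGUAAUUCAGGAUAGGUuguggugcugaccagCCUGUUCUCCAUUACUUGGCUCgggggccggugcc
Mir26a-1: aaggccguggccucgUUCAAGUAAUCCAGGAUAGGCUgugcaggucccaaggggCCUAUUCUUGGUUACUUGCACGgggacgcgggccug
Mir26a-2: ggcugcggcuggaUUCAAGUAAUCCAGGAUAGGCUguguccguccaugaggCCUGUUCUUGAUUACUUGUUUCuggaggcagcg
Mir26b lies at chr1:74394310-74394394 in an intron of Ctdsp1, and Mir26a-1 at chr9:119031796-119031885 in an intron of Ctdspl, in every annotated transcript that spans them. Mir26a-2 lies at chr10:126995530-126995613 inside Ctdsp2, where 2 of the 3 spanning transcripts, 1 protein-coding and 1 with a retained intron, have an exon at that place. All 3 hairpins are on the strand of their host gene. Identical miR-26a-5p comes from both miR-26a hairpins, so its counts cannot be split between Ctdspl and Ctdsp2, whereas each 3p strand reports on 1 hairpin.

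The libraries held 13849777 to 16907910 counts on mature miRNAs. The neuronal markers fixed for the tissue check (miR-124-3p, miR-128-3p, miR-9-5p, miR-137-3p and miR-138-5p) were all detected, with summed levels of 192059 to 248949 CPM. One library, R6/2 shTRAX replicate 3, lay away from the rest, with a score of 22.5 on the first principal component (37.3% of the variance) against -5.24 to 0.79 in the other 11. Its log2 deviations from the mean of the libraries increased with the GC content of the mature miRNA across 564 miRNAs (Spearman rho 0.61, against -0.37 to 0.09 in the others, where miRNAs are not independent replicates). In comparisons that include the group of this library, the main fold changes of single miR-26 arms are also given without it. Fold changes under alternative settings are not always. Levels are in CPM (the count over the TMM-scaled library total), as mean ± SD over 3 libraries. They compare 1 miRNA between libraries. Between miRNAs, ligation efficiency also differs, so an order of levels is an order of counts, and no length scaling was applied because the strands are 21 or 22 bases long.

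By counts the guides stood far above the passengers in each of the 12 libraries. miR-26a-5p ranged from 44352 to 51465 CPM and ranked between the fifth and the eighth most abundant miRNA. miR-26b-5p ranged from 9258 to 13205 CPM and ranked between 20 and 24. miR-26a-2-3p followed at 28.3 to 56.3 CPM. miR-26a-1-3p (9.44 to 13.95 CPM) and miR-26b-3p (8.64 to 14.8 CPM) came last, and their ranges overlapped. Both guides were among the steadiest miRNAs in the data, in a ranking that was not matched for abundance. For miR-26b-5p the rank is no independent trait, since choosing it for a difference between groups favours a small spread within them. The pooled SD within groups was 0.058 for miR-26b-5p and 0.070 for miR-26a-5p on the log2 scale, where 0.145% and 1.16% of the 689 tested miRNAs had a smaller one and the median was 0.28. The passengers, with fewer counts, had SDs of 0.17 to 0.23.

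**Figure D1:**
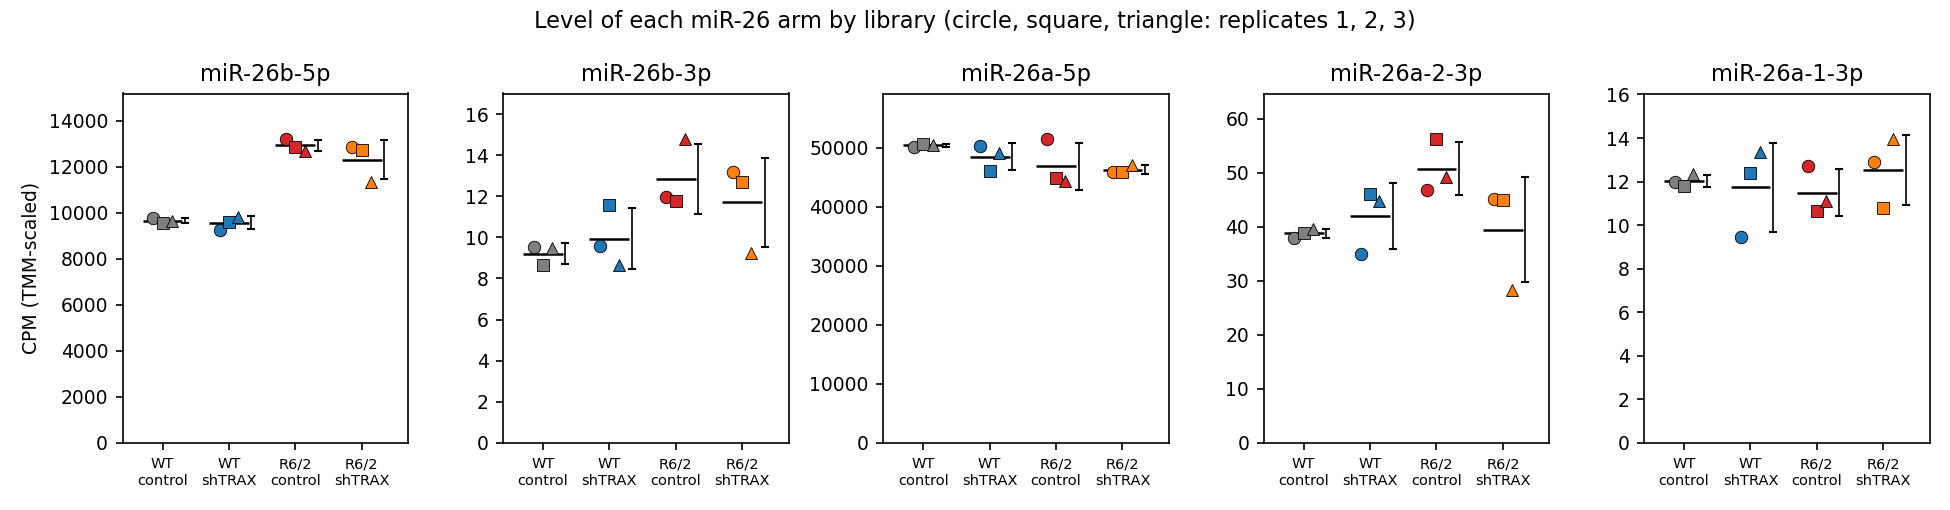
Level of each miR-26 arm in CPM (vertical axis, from 0) in the 12 libraries, by group. Symbols are replicates 1 to 3, the line is the mean and the bar its SD. For miR-26b-5p, chosen for this difference, all 6 R6/2 libraries (11326 to 13205 CPM) lie above all 6 WT libraries (9258 to 9815 CPM). The groups of miR-26a-5p lie at similar heights.

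The genotype difference of miR-26b-5p, the guide from the Ctdsp1 intron, is the observation the family was chosen for. In WT control libraries it stood at 9778, 9560 and 9638 CPM, and in R6/2 control libraries at 13205, 12866 and 12704 CPM. In WT shTRAX libraries it stood at 9258, 9609 and 9815 CPM, and in R6/2 shTRAX libraries at 12872, 12744 and 11326 CPM. The lowest R6/2 library, R6/2 shTRAX replicate 3, was still above the highest WT library. Group means were 9659 ± 110 and 12925 ± 256 CPM under control AAV, 33.8% higher in R6/2, and 9561 ± 282 and 12314 ± 858 CPM under shTRAX AAV, 28.8% higher in R6/2 and 34.0% higher without R6/2 shTRAX replicate 3 (SD, n = 3 per group). The fitted log2 fold changes of R6/2 over WT were 0.42 ± 0.08 and 0.37 ± 0.08 (SE), and 0.44 and 0.42 without that library.

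miR-26a-5p, the sister guide from the Ctdspl and Ctdsp2 hairpins, did not follow this pattern. It stood at 50160, 50597 and 50541 CPM in WT control libraries and at 51465, 44847 and 44352 CPM in R6/2 control libraries. R6/2 control replicate 1 was the highest of the 12 and the other R6/2 controls were the lowest, so the groups overlapped. Under shTRAX AAV it stood at 50355, 45996 and 49110 CPM in WT and at 45869, 45909 and 47135 CPM in R6/2, which also overlapped. The log2 fold changes of R6/2 over WT were -0.11 ± 0.08 under control AAV and -0.07 ± 0.08 under shTRAX AAV (SE), and -0.09 and -0.08 without R6/2 shTRAX replicate 3.

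Among all 689 miRNAs tested for genotype with edgeR's quasi-likelihood test, 10.6% passed an adjusted p of 0.05 under control AAV, 7.26% higher and 3.34% lower in R6/2. Under shTRAX AAV 13.8% passed, 7.98% higher and 5.81% lower. Groups did not overlap for 48.9% of miRNAs under control AAV (27.3% higher in R6/2) and for 30.5% under shTRAX AAV (17.7% higher in R6/2). Against these backgrounds, 3 of the 4 members did not overlap between genotypes under control AAV (miR-26b-5p, miR-26b-3p and miR-26a-2-3p, all higher in R6/2) and 1 of 4 under shTRAX AAV (miR-26b-5p). Nothing is read from these counts, since the choice of the family used these contrasts. The log2 fold change of miR-26b-5p was above that of 81.7% of tested miRNAs under control AAV and of 69.6% under shTRAX AAV, so many miRNAs differed more in size.

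**Figure D2:**
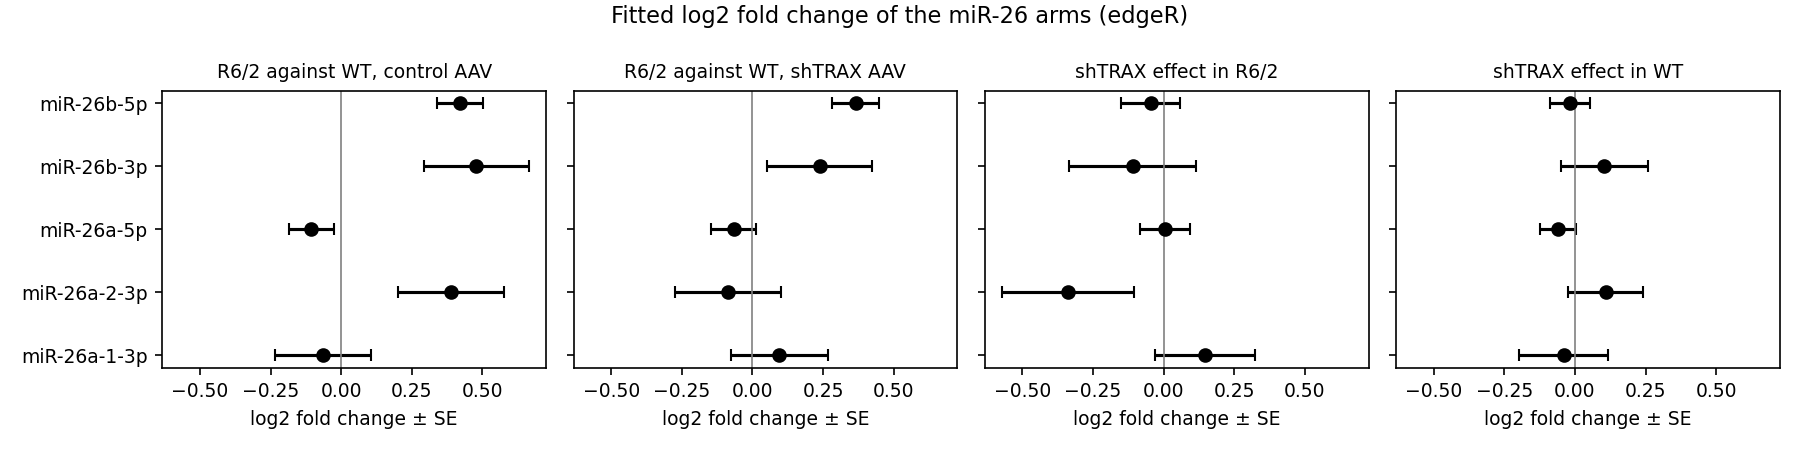
Fitted log2 fold change (horizontal axis) of the 5 arms in the genotype comparisons and the shTRAX comparisons, with points for the estimate and bars for its SE. miR-26b-5p lies at 0.42 and 0.37 for genotype and at -0.05 and -0.02 for shTRAX, and miR-26a-5p lies between -0.11 and 0.01 in all 4.

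The guides share a seed, so their counts were also summed. The sum is one of counts, to which ligation efficiency applies as above. It was 60091 ± 133 CPM in WT control, 59813 ± 4219 CPM in R6/2 control, 58048 ± 2143 CPM in WT shTRAX and 58618 ± 143 CPM in R6/2 shTRAX libraries (SD, n = 3 per group), with a mean of 58697 CPM in the latter without replicate 3. These ranges overlapped between genotypes under both viruses, and counted as 1 miRNA the summed guides had log2 fold changes of R6/2 over WT of -0.01 ± 0.07 under control and 0.01 ± 0.07 under shTRAX AAV (SE). The make-up of the sum differed. miR-26b-5p made up 16.3%, 15.9% and 16.02% of it in the WT controls and 20.4%, 22.3% and 22.3% in the R6/2 controls. Under shTRAX AAV it made up 15.5%, 17.3% and 16.7% in WT and 21.9%, 21.7% and 19.4% in R6/2. All 6 R6/2 libraries were above all 6 WT libraries in this share, the lowest being R6/2 shTRAX replicate 3. In part this restates the level of miR-26b-5p that the family was chosen for. How many miRNAs separate all libraries by genotype in this way was not counted.

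**Figure D3:**
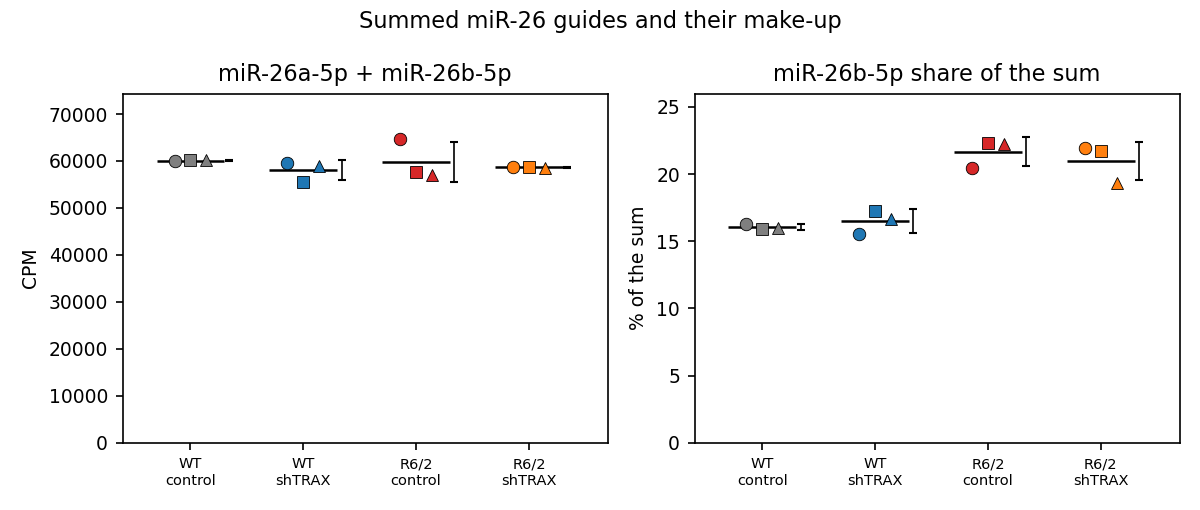
Left, summed CPM of miR-26a-5p and miR-26b-5p by library, from 0. Right, the percentage of that sum made up by miR-26b-5p. Symbols are replicates, with the group mean and SD. The sum runs from 55605 to 64670 CPM with overlapping groups, and the share from 15.5% to 17.3% in WT and from 19.4% to 22.3% in R6/2.

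The ratio of miR-26b-5p to miR-26a-5p within a library does not depend on how libraries are scaled. A trend with GC content can remain in it, since the guides differ in GC content (33.3% and 40.9%). The log2 ratio was 0.53 higher in R6/2 under control AAV and 0.43 higher under shTRAX AAV (0.50 without R6/2 shTRAX replicate 3). The single-miRNA values do depend on scaling. With total counts in place of TMM, the log2 fold change of miR-26b-5p was 0.35 under control and 0.26 under shTRAX AAV. That scaling moved the median over all tested miRNAs from 0.03 to -0.04 under control and from 0.04 to -0.07 under shTRAX AAV. It gave 44 higher and 39 lower calls in place of 50 and 23 under control AAV, and 35 higher and 45 lower in place of 55 and 40 under shTRAX AAV.

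The passengers gave a second view of each hairpin. miR-26b-3p, the passenger of the Ctdsp1 hairpin, stood at 9.51, 8.64 and 9.50 CPM in the WT controls and at 12.0, 11.8 and 14.8 CPM in the R6/2 controls. All R6/2 controls were above all WT controls, as for its guide and for 27.3% of all tested miRNAs, and the log2 fold change was 0.48 ± 0.19 (SE). Under shTRAX AAV it stood at 9.57, 11.6 and 8.67 CPM in WT and at 13.2, 12.7 and 9.22 CPM in R6/2. There the groups overlapped through R6/2 shTRAX replicate 3, and the log2 fold change was 0.24 ± 0.19, or 0.38 ± 0.17 without that library (SE). These values rest on 119 to 206 counts per library.

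miR-26a-2-3p, the passenger of the Ctdsp2 hairpin, stood at 37.9, 38.9 and 39.6 CPM in the WT controls and at 46.8, 56.3 and 49.2 CPM in the R6/2 controls. Here, too, all R6/2 controls were above all WT controls, as for 27.3% of all tested miRNAs, with a log2 fold change of 0.39 ± 0.19 (SE). miR-26a-5p was not higher, but it also comes from the Ctdspl hairpin, so the guide from the Ctdsp2 hairpin alone was not measured. Under shTRAX AAV it stood at 35.0, 46.1 and 44.8 CPM in WT and at 45.2, 45.0 and 28.3 CPM in R6/2. The groups overlapped, R6/2 shTRAX replicate 3 being the lowest of the 12 libraries, and the log2 fold change was -0.09 ± 0.19 (SE), which turned to 0.10 ± 0.14 without that library. miR-26a-1-3p, the passenger of the Ctdspl hairpin, overlapped between genotypes under both viruses, with log2 fold changes of -0.07 ± 0.17 under control AAV and 0.10 ± 0.17 under shTRAX AAV (SE). Without R6/2 shTRAX replicate 3 the latter was 0.014 ± 0.16, and it turned to -0.063 without WT shTRAX replicate 1 and to -0.0054 with total counts. As a share of all miR-26a 3p counts, miR-26a-2-3p made up 76.3% ± 0.4 in WT control, 81.4% ± 2.7 in R6/2 control, 78.2% ± 1.0 in WT shTRAX and 75.2% ± 7.2 in R6/2 shTRAX libraries (SD, n = 3 per group), or 79.2% in the latter without replicate 3.

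The trend of the genotype fold changes with GC content, which under shTRAX AAV rested largely on R6/2 shTRAX replicate 3, is set beside these values. So are summed markers of cell types. Under control AAV the summed vessel markers separated the genotypes. Under shTRAX AAV the sums for microglia and blood-derived cells and for choroid plexus did. The lowest marker per library overlapped for vessels under control AAV (42.7 to 43.8 CPM in WT, 42.8 to 55.0 in R6/2). It also overlapped for microglia and blood-derived cells under shTRAX AAV (60.6 to 113 CPM in WT, 37.4 to 65.5 in R6/2). Not every marker of these lists therefore separated. For choroid plexus under shTRAX AAV the lowest marker did separate (38.9 to 127 CPM in WT, 172 to 204 in R6/2). Across 564 miRNAs the log2 fold change of R6/2 over WT had a Spearman rho with GC content of -0.21 under control AAV and 0.44 under shTRAX AAV, a description in which the points share libraries. Without R6/2 shTRAX replicate 3, over 573 miRNAs, the rho was -0.22 and 0.052. With per-library offsets on GC content, the log2 fold change of miR-26b-5p was 0.36 ± 0.16 under control AAV and 0.80 ± 0.16 under shTRAX AAV (SE). The latter is over 1.5 times the 0.37 of the fit without offsets, and without R6/2 shTRAX replicate 3 it was 0.56 ± 0.067 (SE, an alternative chosen after seeing the data). With these offsets miR-26a-5p turned from -0.07 to 0.14 ± 0.14 under shTRAX AAV (-0.027 ± 0.091 without R6/2 shTRAX replicate 3) and was -0.17 ± 0.14 under control AAV (SE). miR-26a-2-3p turned from -0.09 to 0.21 ± 0.13 under shTRAX AAV with the offsets, and was 0.21 ± 0.13 without R6/2 shTRAX replicate 3 as well (SE). With the offsets and without that library, miR-26b-3p was 0.61 ± 0.15 under control AAV and 0.48 ± 0.17 under shTRAX AAV (SE). The summed level of 5 vessel markers, all 5 of them detected in every library (miR-126a-3p, miR-126a-5p, miR-143-3p, miR-145a-5p and miR-145a-3p), was 30386 to 30623 CPM in WT control and 35021 to 37998 CPM in R6/2 control libraries. It was 28875 to 34053 CPM in WT shTRAX and 31095 to 38250 CPM in R6/2 shTRAX libraries, which overlapped. Summed markers of microglia and blood-derived cells (5 of 5 detected) overlapped under control AAV, at 5544 to 14016 CPM in WT and 3032 to 9446 CPM in R6/2. Under shTRAX AAV they stood at 3623 to 16914 CPM in WT and 2076 to 3477 CPM in R6/2, all R6/2 libraries being lower. Summed choroid plexus markers (4 of 4) also overlapped under control AAV, at 1336 to 1673 CPM in WT and 1436 to 7740 CPM in R6/2. Under shTRAX AAV they stood at 1511 to 4346 CPM in WT and 4520 to 5560 CPM in R6/2, all R6/2 libraries being higher. Summed markers of oligodendrocytes (4 of 4, 6041 to 10859 CPM over the 12 libraries), erythroid cells (4 of 4, 115 to 250.4 CPM) and neurons overlapped between genotypes under both viruses. The part of GC content or of these cell types in the miR-26 values was not tested.

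**Figure D4:**
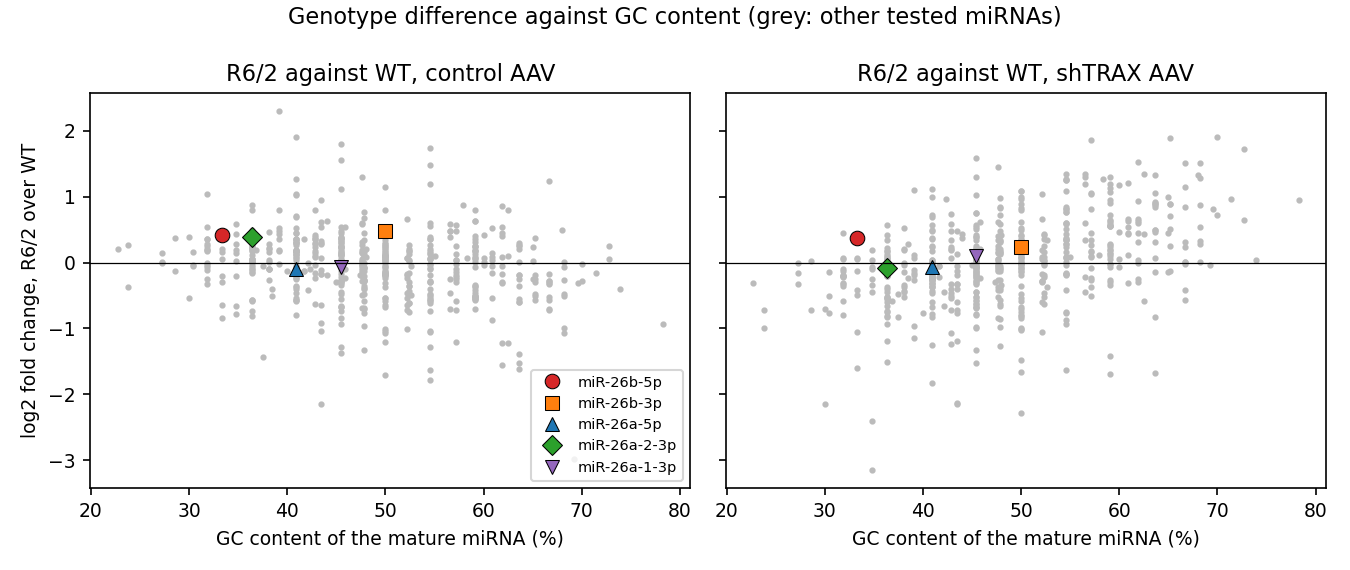
Log2 fold change of R6/2 over WT (vertical axis) against GC content of the mature miRNA in percent (horizontal axis) under control AAV (left) and shTRAX AAV (right). Grey points are the other tested miRNAs and coloured symbols the 5 miR-26 arms. miR-26b-5p, at 33.3% GC, lies at 0.42 and 0.37, and miR-26b-3p, at 50.0%, at 0.48 and 0.24.

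The shTRAX comparisons were not used to choose the family and ask whether the TRAX hairpin was accompanied by a change of either strand. None of the 5 arms passed in either genotype. In R6/2, edgeR's quasi-likelihood test called 0% of 651 miRNAs (68 at an unadjusted p under 0.05, and 13 miRNAs by DESeq2, none of them a miR-26 arm). Without R6/2 shTRAX replicate 3 it called 0.602% of 664 miRNAs, 0.452% higher and 0.151% lower, again with no miR-26 arm. Across 533 miRNAs the log2 fold change of shTRAX over control in R6/2 had a Spearman rho with GC content of 0.57. It was 0.26 over 542 miRNAs without that library, and -0.25 over 551 miRNAs in WT, where the points share libraries. miR-26b-5p had a log2 fold change of -0.05 ± 0.10 (SE, adjusted p = 0.79), with a 95% interval of -0.30 to 0.21, and 0.02 ± 0.03 without R6/2 shTRAX replicate 3. miR-26a-5p had 0.01 ± 0.09 (SE, adjusted p = 0.975), with an interval of -0.21 to 0.22, and 0.0027 ± 0.049 without that library. With GC offsets the values were 0.41 ± 0.20 for miR-26b-5p, a turn of direction, and 0.18 ± 0.17 for miR-26a-5p (SE), neither past the threshold (adjusted p = 0.467 and 0.571). With the offsets and without R6/2 shTRAX replicate 3 they were 0.14 ± 0.040 and 0.011 ± 0.080 (SE, adjusted p = 0.213 and 0.960). The value of miR-26a-5p also lay below 0 under other settings, down to -0.041 with total counts.

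Of the passengers in R6/2, miR-26a-2-3p had the largest difference. All 3 shTRAX libraries (28.3 to 45.2 CPM) lay below all 3 controls (46.8 to 56.3 CPM), which was so for 16.4% of all tested miRNAs, and 29.6% did not overlap in either direction. The log2 fold change of -0.34 ± 0.23 did not pass (SE, adjusted p = 0.496) and was -0.14 ± 0.11 without R6/2 shTRAX replicate 3. With GC offsets it was -0.043 ± 0.12 (SE, adjusted p = 0.849). The same R6/2 controls enter its genotype value above. miR-26b-3p stood at -0.11 ± 0.22 (adjusted p = 0.766), with overlapping groups. It turned to 0.042 ± 0.15 without R6/2 shTRAX replicate 3 and to 0.016 without R6/2 control replicate 3. miR-26a-1-3p stood at 0.15 ± 0.18 (adjusted p = 0.63), also with overlap, and at 0.074 ± 0.13 without R6/2 shTRAX replicate 3.

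In WT, 1 of 665 miRNAs passed (0.15%), and it was not a miR-26 arm. miR-26b-5p had a log2 fold change of -0.02 ± 0.07 under shTRAX (SE, adjusted p = 0.935), with a 95% interval of -0.18 to 0.15, and miR-26a-5p had -0.06 ± 0.06 (SE, adjusted p = 0.835), with an interval of -0.21 to 0.09. miR-26a-2-3p stood at 0.11 ± 0.13 (adjusted p = 0.841), miR-26b-3p at 0.10 ± 0.15 (adjusted p = 0.868) and miR-26a-1-3p at -0.04 ± 0.16 (adjusted p = 0.935). Groups overlapped for all 5, where 15.2% of all tested miRNAs did not overlap (7.26% higher and 7.98% lower under shTRAX). Without WT shTRAX replicate 1, 57 of 678 miRNAs passed, none of them a miR-26 arm. The lowest edgeR adjusted p of an arm was then 0.0594, for miR-26a-5p. A p that misses the threshold does not show that the levels were the same. Without GC offsets, the intervals of the guides in the tests within genotype reach no further than 0.30 on the log2 scale in either direction, and with them the estimate for miR-26b-5p in R6/2 lies beyond that.

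No arm passed in the authors' deposited tables either. Those tables give a signed fold of shTRAX over control, negative where shTRAX is lower. In the authors' deposited tables miR-26b-5p had -1.06 in R6/2 and -1.005 in WT. For miR-26a-2-3p the authors' deposited tables gave -1.29 (adjusted p = 0.794) and 1.08 (adjusted p = 0.994). None of the 5 arms is among the 83 miRNAs that the authors' deposited list holds for R6/2.

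An interaction term over 12 libraries compared the shTRAX differences of R6/2 and WT. None of the 5 arms passed, nor did any of the 689 miRNAs (0%, edgeR; 61 at an unadjusted p under 0.05, and 2 miRNAs by DESeq2). The difference of the log2 fold changes, R6/2 minus WT, was -0.06 ± 0.12 for miR-26b-5p (SE, adjusted p = 0.784) and 0.04 ± 0.11 for miR-26a-5p (SE, adjusted p = 0.863). With GC offsets it was 0.44 ± 0.22 for miR-26b-5p, a turn of direction, and 0.31 ± 0.20 for miR-26a-5p (SE, adjusted p = 0.525 for both). Without R6/2 shTRAX replicate 3 and without offsets it was -0.016 and 0.011, and with both 0.20 ± 0.091 and 0.14 ± 0.12 (SE, adjusted p = 0.71 and 0.865). For miR-26a-2-3p, which stood at -0.34 in R6/2 and 0.11 in WT, it was -0.47 ± 0.27 (SE, adjusted p = 0.469), -0.30 ± 0.19 without R6/2 shTRAX replicate 3, and -0.11 ± 0.18 with GC offsets (adjusted p = 0.767).

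The balance of strands was read beside the reported activity of the TRAX complex on passenger strands. A link between the 2 was not tested. The passengers were rare in every library. miR-26b-3p made up 0.0814% to 0.12% of the counts of its hairpin, and the 2 miR-26a passengers together 0.0882% to 0.149% of the miR-26a counts. The log2 ratio of miR-26b-5p to miR-26b-3p was 10.03 ± 0.07 in WT control, 9.92 ± 0.22 in WT shTRAX, 9.98 ± 0.20 in R6/2 control and 10.05 ± 0.18 in R6/2 shTRAX libraries (SD, n = 3 per group). It differed by 0.07 under shTRAX in R6/2 (exact two-sided permutation test, p = 0.7) and by -0.11 in WT (exact test, p = 0.5), and the groups overlapped in both. The R6/2 difference turned to -0.033 without R6/2 shTRAX replicate 3 and to -0.048 without R6/2 control replicate 3. With 3 against 3 libraries the smallest p such a test allows is 0.1.

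The log2 ratio of miR-26a-5p to miR-26a-2-3p was 10.34 ± 0.03 in WT control and 10.18 ± 0.27 in WT shTRAX, and 9.85 ± 0.23 in R6/2 control and 10.23 ± 0.41 in R6/2 shTRAX libraries (SD, n = 3 per group). It differed by 0.38 under shTRAX in R6/2 (exact two-sided permutation test, p = 0.3), of which 0.14 was left without R6/2 shTRAX replicate 3, and by -0.16 in WT (exact test, p = 0.4). Under control AAV it was 0.49 lower in R6/2 than in WT on the log2 scale, with no overlap, a description given without a test. miR-26a-5p comes from both miR-26a hairpins, so this ratio does not measure the strands of a single hairpin. How often such ratios separate the groups outside the family was not counted. The log2 ratio of miR-26b-5p to miR-26a-5p differed by -0.06 under shTRAX in R6/2 (exact test, p = 0.5), or 0.015 without R6/2 shTRAX replicate 3, and by 0.04 in WT (exact test, p = 0.6).

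**Figure D5:**
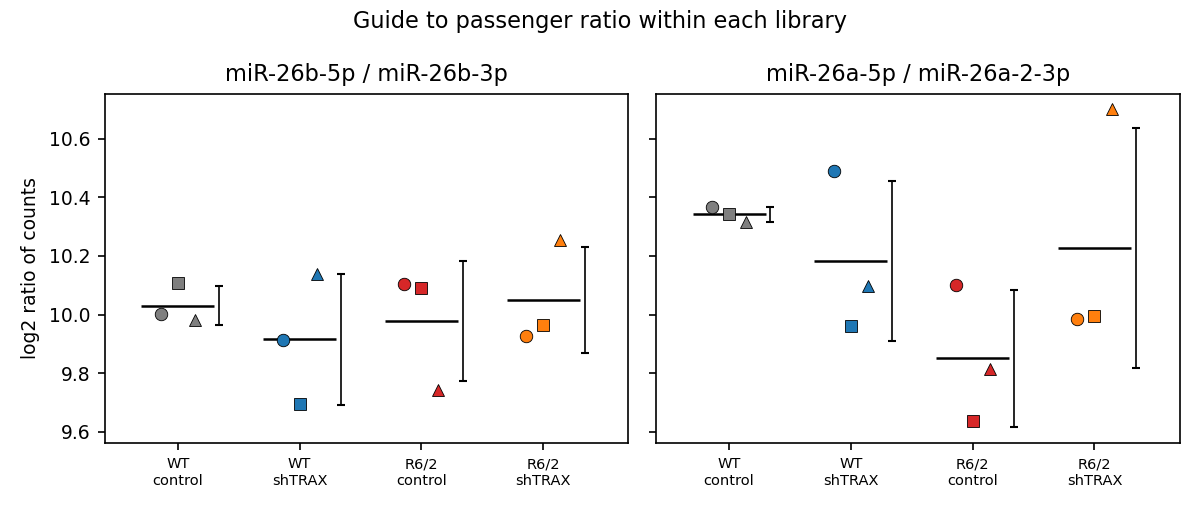
Log2 ratio of guide to passenger counts within each library (vertical axis, which does not start at 0), for miR-26b (left) and for miR-26a-5p over miR-26a-2-3p (right), with group means and SDs. The miR-26b ratio overlaps between all groups. For miR-26a, whose guide comes from both miR-26a hairpins, the R6/2 controls lie below the WT controls. R6/2 shTRAX replicate 3 is the highest library there at 10.70.

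miRNAs whose level moved most like that of each guide were ranked by the root mean square difference of log2 deviations over the 12 libraries, among 208 miRNAs with a mean of at least 100 CPM. Nearest to miR-26b-5p were miR-126a-3p, an endothelial miRNA, at 0.10, miR-125b-2-3p at 0.11, miR-672-5p at 0.12, miR-30e-3p at 0.12 and miR-152-3p at 0.14, where the median candidate was at 0.33. These 5 had GC contents of 45.5% to 50.0%. Among all 688 other tested miRNAs its own passenger miR-26b-3p ranked 16 (0.15) and its sister guide miR-26a-5p ranked 135 (0.25). Nearest to miR-26a-5p were miR-434-3p at 0.064, miR-107-3p at 0.084, miR-300-3p at 0.085, miR-872-5p at 0.088 and miR-379-5p at 0.092, where the median candidate was at 0.28. miR-26b-5p ranked 175 for it. The neighbours of miR-26b-5p rested on R6/2 shTRAX replicate 3. Over the other 11 libraries, an alternative chosen after seeing the data, only miR-672-5p remained among its nearest 5, which were led by miR-127-3p at 0.068, and miR-26b-3p ranked 33. For miR-26a-5p 3 of the 5 remained (miR-434-3p, miR-107-3p and miR-300-3p). The guides, at 0.26 from each other, ranked 244 and 343.

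A list of 15 strands of miRNAs reported under REST control was read beside the family, because the host genes' products work with REST. Under shTRAX 0 of 15 passed in R6/2 (median log2 fold change -0.23, 2 above 0, against a median of -0.01 over all tested miRNAs, and -0.10 for the list without R6/2 shTRAX replicate 3) and 0 of 15 in WT (median 0.01, 8 above 0, against -0.01). In R6/2 against WT under control AAV 4 of 15 passed, all lower, where 10.6% of all tested miRNAs passed and 3.34% as lower, with a list median of 0.00 against 0.03 over all tested miRNAs. These were the 4 strands of miR-132 and miR-212, activity-induced miRNAs of 1 locus, with miR-212-3p at -1.63 ± 0.13 (SE, edgeR adjusted p = 2.04e-05). Under shTRAX AAV 6 of 15 passed, all lower, where 13.8% of all passed and 5.81% as lower (list median -0.43, against 0.04). Among them were again miR-212-3p, miR-132-3p and miR-132-5p, and miR-139-5p at -0.94 ± 0.16 (SE, edgeR adjusted p = 0.00556). With only the 6 libraries of this contrast in the fit, 2 of 650 miRNAs passed in all. Without R6/2 shTRAX replicate 3, also an alternative chosen after seeing the data, 6 passed as lower under both viruses and 2 as higher under control AAV, and the list median under shTRAX AAV was -0.21. Without that library 30% of all tested miRNAs passed under control AAV, 17.1% higher and 12.9% lower, and 20.1% under shTRAX AAV, 11.3% higher and 8.86% lower.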

How the data were processed

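Small RNA libraries from striatum were sequenced in 4 groups of 3. The authors deposited raw read counts for 2059 rows of mature miRNA and precursor per library, per the file headers. They also deposited RPM values, used here only in an alternative. Their deposited p-values and signed fold scores were read as the authors' own results. The submitters used bcl2fastq 2.20, Trimmomatic and build GRCm38, per the submitters' processing notes. Aligner, counter, use of the kit's molecular identifiers and the authors' test: not given in the sources used here. RNA was extracted with TRIzol or a column kit, and which sample had which is not stated in the labels. The authors' reduced sheets were left aside.

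A mature name with several rows was represented by its highest row. The 2 rows of miR-26a-5p differed by at most 0.00946%. The test was edgeR 4.0.16 under R 4.3.3 on counts (quasi-likelihood, TMM, filterByExpr with minimum count 10, Benjamini-Hochberg over all tested miRNAs, threshold 0.05), within a genotype over 6 libraries, and over 12 libraries for genotype and interaction. No p is given for the family between genotypes. Ratios used a pseudocount of 0.5 and scipy 1.17.1. Alternatives used DESeq2 1.42.0, limma 3.58.1, other scalings, GC offsets (GC known for 81.9% of 689 miRNAs) and left-out libraries. The procedure was also run on simulated counts, which held no outlying library and no GC trend, and no result above rests on that run. Positions come from GENCODE M21 and sequences from RefSeq, both GRCm38. The members and lists were chosen with earlier results of these data known. Named miRNAs are the members, sharers of their seeds, the 5 nearest to each guide, and up to 4 called members of the REST list per comparison.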

Additional observations from a re-analysis of the deposited data

How the results depend on the processing

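The log2 fold change of miR-26b-5p in R6/2 over WT was above 0 under every alternative run, from 0.34 to 0.46 under control AAV and from 0.26 to 0.80 under shTRAX AAV. Under control AAV it stayed within the spread between replicates in 9 of 21 alternatives. It moved by more with DESeq2 (0.39), RLE scaling (0.39), total counts (0.35), limma on log2(RPM + 1) (0.34), GC offsets (0.36) and some of the left-out libraries. Without any 1 library it ran from 0.41 to 0.46. Under shTRAX AAV it moved by more than that spread with GC offsets (0.80), total counts (0.26) and limma (0.26), and ran from 0.30 to 0.42 without any 1 library. miR-26a-5p under shTRAX AAV turned to 0.14 with GC offsets. No arm passed in any shTRAX or interaction alternative, the lowest adjusted p being 0.0594 for miR-26a-5p in WT without WT shTRAX replicate 1.

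The log2 ratio of miR-26b-5p to miR-26b-3p under shTRAX in R6/2 ran from -0.05 to 0.13 without any 1 library. It was -0.033 without R6/2 shTRAX replicate 3 and -0.048 without R6/2 control replicate 3. The log2 ratio of the guides under shTRAX in R6/2 ran from -0.11 to 0.015, the latter without R6/2 shTRAX replicate 3. The cause was not tested.

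Counts of all miRNAs called depended on the settings. In R6/2 under shTRAX the count of 0 became 13 with DESeq2 and 1 with 12 libraries, and ran from 0 to 4 without any 1 library (4 when R6/2 shTRAX replicate 3 was left out, 3 for R6/2 control replicate 2). In WT the count of 1 became 4 with DESeq2, 4 without a low-count filter, 2 with GC offsets and 0 with 12 libraries, and ran from 0 to 57. It was 57 without WT shTRAX replicate 1 and 2 when replicate 3 of that group was left out. Any other WT library left out gave 0. The interaction gave 2 with DESeq2. For genotype under control AAV the 73 became 232 with 6 libraries and 46 without a filter, and ran from 40 to 210. Leaving out R6/2 control replicate 2 gave 40, R6/2 control replicate 3 48, any 1 WT control 44 or 45, and R6/2 shTRAX replicate 3 210. Under shTRAX AAV the 95 became 2 with 6 libraries and ran from 38 to 141, with 51, 38 and 40 when WT shTRAX replicate 1, 2 or 3 was left out.

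With the replicate number as a block, that 95 became 59 and the 73 became 59, no arm passed, and miR-26b-5p stood at 0.42 and 0.36. Same-numbered libraries of compared groups had correlations of deviations from -0.34 to 0.30 and did not all correlate best with their own number, so the numbers were not taken as pairs. Depth limits the passengers, at 119 to 770 counts per library.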
